A study of Mus musculus with 4 samples.

Results

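The interferon-stimulated genes of mouse glomeruli are described here through 33 named genes, found by symbol among the 22809 genes of the deposited expression table. All 33 were present. They were divided into 26 genes of the kind induced by type I interferon, called type I-style here, and 7 GTPases typical of the response to interferon-gamma (Gbp2, Gbp3, Gbp7, Irgm1, Igtp, Iigp1 and Tgtp1). Glomeruli, the filtering units of the kidney, were isolated at 3 weeks of age and their poly(A) RNA was sequenced. The 2 libraries labelled HDAC KO came from mice described as deficient, in podocytes, for Hdac1 and Hdac2, which encode closely related histone deacetylases. Podocytes are epithelial cells whose foot processes cover the outside of the glomerular capillaries. The 2 control libraries came from mice labelled as wild type. Each library pooled 2 mice, and the design text counts 2 independent experiments; the promoter that drove the deletion is not given in the sources used here. The comparison asks which transcripts of whole glomeruli differ when podocytes lack both enzymes.

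Interferons are secreted signals of antiviral and antibacterial defence. Type I interferons (IFN-alpha and IFN-beta) act through IFNAR1 and IFNAR2 and the kinases JAK1 and TYK2, and lead a complex that holds STAT2 and IRF9 to assemble on a DNA element named ISRE. Interferon-gamma acts through IFNGR1 and IFNGR2 and the kinases JAK1 and JAK2, and switches on genes through an element named GAS. Many genes respond to both kinds of interferon, so a class name here is a convention and not a measured source of induction. In the kidney, endothelial, mesangial, epithelial and resident immune cells can all express such genes.

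Expression was higher in the HDAC KO-labelled libraries for nearly the whole group. Values are TPM, reads per gene divided by gene length and scaled to 1000000 per library, so levels can be compared between genes. Over the 33 genes, the median of the mean levels was 28.1 TPM in HDAC KO-labelled libraries and 6.49 TPM in controls. Both HDAC KO-labelled values exceeded both control values for 32 of the 33 genes, where 36.7% of all 18612 genes tested did so. Ifi44 was the exception. The median log2 fold change, taken throughout on the log2(TPM + 1) scale as HDAC KO-labelled over control, was 1.85, against 0.17 over all genes tested. A log2 fold change of at least 1 was measured for 31 of the 33, where 8.05% of all genes reached that size.

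None of the 33 genes passed the adjusted threshold of 0.05 in limma's moderated test with Benjamini-Hochberg adjustment over all genes, where 0% of genes passed in the upward direction and 0.00537%, 1 gene, in the downward direction. At an unadjusted p under 0.05, 32 of the 33 were higher, against 13.4% of all genes, and 0 were lower, against 4.46% of all genes. With voom on whole reads, 0 were called and 31 of 32 were higher at an unadjusted p under 0.05, against 14% of all genes in that fit. The smallest adjusted p values, under 0.1, belonged to Isg15, Igtp, Irf7 and Oas1a, and 0.698% of all genes were that low in the upward direction. Without control replicate 2, 31 of the 33 passed the adjusted threshold, all but Ifi44 and Trim25, where 8.37% of all genes passed; the lone control is then assumed to vary like the HDAC KO-labelled libraries. With 2 libraries against 2, an exact two-sided permutation test cannot go below 0.333.

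**Figure D1:**
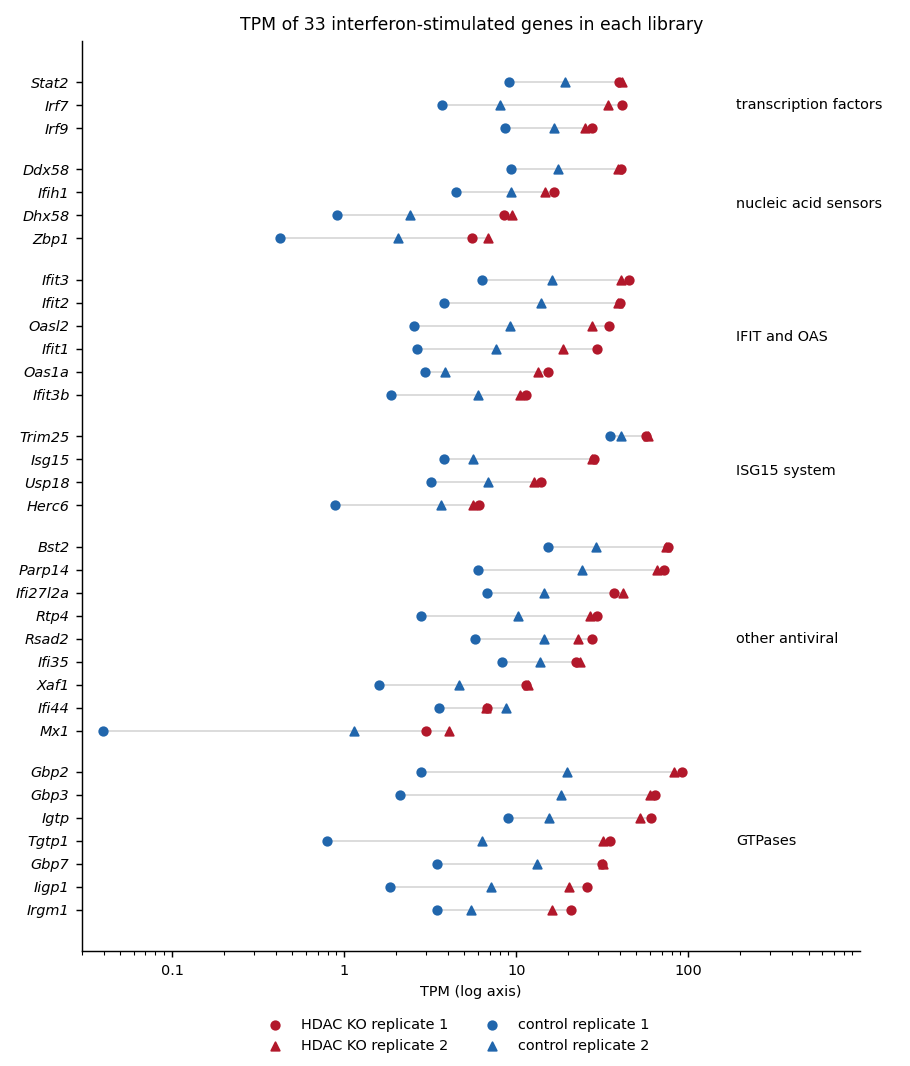
TPM (log axis) of each of the 33 genes in each library, grouped by role, with HDAC KO-labelled libraries in red and controls in blue, and circles for replicate 1 and triangles for replicate 2. The red points lie to the right of the blue points for 32 genes, and the blue circle, control replicate 1, is the lowest point of all 33.

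The libraries differed in other ways. Whole reads recovered per library numbered 17674566 and 21188798 in HDAC KO-labelled replicates 1 and 2, and 15969963 and 13015925 in control replicates 1 and 2. Hdac1 was at 22.9 and 22.5 TPM in HDAC KO-labelled libraries, against 19.3 and 18.6 TPM in controls, and Hdac2 at 23.5 and 20.9 TPM in HDAC KO-labelled libraries, against 20.2 and 24.1 TPM in controls. Neither transcript was lower under the HDAC KO label, so the directions given here rest on the labels. Podocyte markers, all 10 above 0 in every library, summed to 120 and 332 TPM in HDAC KO-labelled libraries and to 344 and 782 TPM in controls. Proximal tubule markers were also present, at 3007 and 3327 TPM in HDAC KO-labelled libraries and 9908 and 6311 TPM in controls. In whole-tissue RNA, fewer cells of a type and less RNA per cell cannot be told apart.

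The promoters of 25 of the 33 genes were matched in RefSeq (build GRCm38.p6), as windows of 300 bases with 250 before and 50 after the start. A search on both strands for the ISRE pattern GAAANNGAAA found it in 16 of the 25 (64.0%), against 3.99% of all 27025 promoters of the same length. The pattern was in 10 of the 19 type I-style promoters (52.6%) and in 6 of the 6 GTPase promoters matched. The GAS pattern TTCNNNGAA, whose reverse complement is itself, was in 4 of the 19 type I-style promoters (21.1%) and in 3 of the 6 GTPase promoters, against 9.55% of all promoters. A match describes letters, not a bound site. The 5 promoters below belong to the 3 type I-style genes and the 2 GTPases with the smallest p, and are shown so that the elements of the 2 classes can be compared letter by letter; capitals mark the matches, and each reads 5′ to 3′ on the gene's own strand.
Isg15: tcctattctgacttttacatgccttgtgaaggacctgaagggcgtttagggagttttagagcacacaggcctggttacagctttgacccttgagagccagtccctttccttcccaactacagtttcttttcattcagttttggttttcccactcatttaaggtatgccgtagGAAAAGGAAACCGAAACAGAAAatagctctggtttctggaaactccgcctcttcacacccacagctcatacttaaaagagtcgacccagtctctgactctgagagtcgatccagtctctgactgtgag
Irf7: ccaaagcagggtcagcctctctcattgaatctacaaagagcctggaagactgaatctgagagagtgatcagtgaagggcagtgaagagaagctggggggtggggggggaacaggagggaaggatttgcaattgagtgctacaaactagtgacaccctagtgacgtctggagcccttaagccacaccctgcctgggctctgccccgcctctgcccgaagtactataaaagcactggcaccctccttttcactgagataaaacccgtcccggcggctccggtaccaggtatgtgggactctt
Oas1a: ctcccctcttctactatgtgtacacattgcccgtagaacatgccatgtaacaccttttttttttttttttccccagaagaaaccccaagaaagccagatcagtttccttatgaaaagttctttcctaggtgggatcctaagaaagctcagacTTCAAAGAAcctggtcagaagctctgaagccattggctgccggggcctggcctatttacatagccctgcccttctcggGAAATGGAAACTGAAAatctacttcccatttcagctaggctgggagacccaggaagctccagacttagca
Igtp: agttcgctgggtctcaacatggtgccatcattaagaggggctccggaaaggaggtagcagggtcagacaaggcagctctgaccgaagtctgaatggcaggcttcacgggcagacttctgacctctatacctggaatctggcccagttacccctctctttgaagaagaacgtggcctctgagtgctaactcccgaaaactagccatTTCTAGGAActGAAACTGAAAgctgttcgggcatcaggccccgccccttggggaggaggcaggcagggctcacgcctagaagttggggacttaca
Irgm1: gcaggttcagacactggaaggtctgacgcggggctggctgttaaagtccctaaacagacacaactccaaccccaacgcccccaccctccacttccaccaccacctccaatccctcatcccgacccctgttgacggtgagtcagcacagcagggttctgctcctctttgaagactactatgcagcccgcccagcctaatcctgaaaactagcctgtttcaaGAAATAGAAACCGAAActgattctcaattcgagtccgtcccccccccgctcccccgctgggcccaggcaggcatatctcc

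The Isg15 window (chr4:156200769-156201068, minus strand) held 3 overlapping ISRE matches at -78 to -57 relative to the start. In Oas1a (chr5:120907476-120907775, minus strand), a pair of overlapping ISRE matches lay at -20 to -5 and a GAS match at -98 to -90. Among the GTPases, Igtp (chr11:58199306-58199605, plus strand) had an ISRE match at -34 to -25 next to a GAS match at -45 to -37. Irgm1 (chr11:48871371-48871670, minus strand) had a pair of overlapping ISRE matches at -30 to -15 and no GAS match. The Irf7 window (chr7:141266375-141266674, minus strand) held neither pattern. Both patterns were therefore found in type I-style and in GTPase promoters. Tgtp1 had the same arrangement as Igtp, with a GAS match at -88 to -80 and an ISRE match at -77 to -68. In Bst2 the GAS match at -136 to -128 overlapped the first of a pair of overlapping ISRE matches that ended at -115.

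The transcription factors that carry the type I signal were all higher in HDAC KO-labelled libraries. Irf7, which amplifies interferon production and is itself induced by it (chromosome 7, 141262706 to 141266481), was at 41.0 and 34.0 TPM in HDAC KO-labelled libraries, against 3.68 and 8.02 TPM in controls. Its mean level was 6.41-fold higher and its log2 fold change was 2.56 (SE 0.35), with an adjusted p of 0.0988. Its lowest HDAC KO-labelled value was 4.24 times its highest control value. Its groups were thus far apart although control replicate 2 was above control replicate 1. Stat2, a subunit of the type I complex, was at 39.3 and 41.3 TPM in HDAC KO-labelled libraries, against 9.03 and 19.2 TPM in controls. Irf9, the DNA-binding subunit of that complex, was at 27.4 and 25.1 TPM in HDAC KO-labelled libraries, against 8.66 and 16.5 TPM in controls. The groups did not overlap for any of these 3 genes, where 36.7% of all genes tested had both HDAC KO-labelled values above both control values. The log2 fold change was 1.54 for Stat2 (SE 0.35) and 1.07 for Irf9 (SE 0.32).

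The cytosolic sensors of foreign nucleic acid showed differences of the same direction. Ddx58, which encodes the RNA sensor RIG-I, was at 40.8 and 38.8 TPM in HDAC KO-labelled libraries and at 9.33 and 17.6 TPM in controls (log2 fold change 1.56, SE 0.31, adjusted p = 0.110). Ifih1, encoding the sensor MDA5 of long viral RNA, was at 16.6 and 14.6 TPM in HDAC KO-labelled libraries and at 4.45 and 9.32 TPM in controls. Both sensors were lowest in control replicate 1. Dhx58, encoding their regulator LGP2, was at 8.50 and 9.43 TPM in HDAC KO-labelled libraries, against 0.914 and 2.40 TPM in controls. Zbp1, a sensor of left-handed nucleic acid that can start necroptosis, was at 5.50 and 6.88 TPM in HDAC KO-labelled libraries, against 0.424 and 2.07 TPM in controls. The controls of each sensor stayed below both HDAC KO-labelled values, as did those of 36.7% of all genes tested. The log2 fold changes of the 4 sensors ran from 1.15 for Ifih1 to 1.96 for Dhx58.

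The IFIT proteins bind viral RNA and restrain its translation, and the OAS enzymes make the oligoadenylates that switch on RNase L. Oas1a (chromosome 5, 120896256 to 120907521) was at 15.3 and 13.4 TPM in HDAC KO-labelled libraries and at 2.93 and 3.87 TPM in controls. Its log2 fold change was 1.81 (SE 0.25), with an adjusted p of 0.0988. Its controls were close together. Ifit2 was at 40.3 and 39.3 TPM in HDAC KO-labelled libraries and at 3.81 and 13.9 TPM in controls. Ifit3 was at 45.3 and 40.4 TPM in HDAC KO-labelled libraries, against 6.34 and 16.1 TPM in controls, and Ifit1 at 29.5 and 18.7 TPM in HDAC KO-labelled libraries, against 2.64 and 7.61 TPM in controls. For these IFIT genes control replicate 2 was well above control replicate 1 but below both HDAC KO-labelled values. Both controls were below both HDAC KO-labelled values for 36.7% of all genes tested. Oasl2, an OAS-like gene, was at 34.4 and 27.7 TPM in HDAC KO-labelled libraries and at 2.56 and 9.24 TPM in controls, with a log2 fold change of 2.40 (SE 0.51), while Ifit3b had the smallest of these 6 genes, 1.42 (SE 0.46). The 4 IFIT genes lie together on chromosome 19, from 34550694 to 34650009.

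ISG15 is a ubiquitin-like protein that is attached to other proteins during the response. Isg15 (chromosome 4, 156199424 to 156200818) had the smallest p of the 33 genes. It was at 28.4 and 27.7 TPM in HDAC KO-labelled libraries, against 3.83 and 5.59 TPM in controls, a mean ratio of 5.96. The spread within each group was small beside that difference (28.1 ± 0.488 TPM in HDAC KO-labelled libraries and 4.71 ± 1.24 TPM in controls, SD, n = 2 each), and its log2 fold change was 2.37 (SE 0.24), with an adjusted p of 0.0928. Usp18, which removes ISG15 and dampens IFNAR signalling, was at 13.9 and 12.6 TPM in HDAC KO-labelled libraries and at 3.21 and 6.84 TPM in controls. Herc6, the ligase that attaches ISG15 in mice, was at 6.04 and 5.64 TPM in HDAC KO-labelled libraries, against 0.885 and 3.64 TPM in controls, and its unadjusted p was 0.0487. Trim25, a ubiquitin ligase that acts on RIG-I, had the highest control level of all 33 genes. It was at 56.6 and 58.4 TPM in HDAC KO-labelled libraries and at 35.2 and 40.8 TPM in controls, a mean ratio of 1.51, a log2 fold change of 0.59 (SE 0.16) and an adjusted p of 0.166. With median-ratio scaling, where 9.54% of all genes were higher at an unadjusted p under 0.05, Herc6 and Trim25 were no longer among the 30 of the 33 past that threshold.

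Among the other antiviral effectors, Bst2 and Parp14 had the highest levels. Bst2 encodes tetherin, which holds budding virus at the cell surface, and was at 76.4 and 74.1 TPM in HDAC KO-labelled libraries, against 15.2 and 29.0 TPM in controls (log2 fold change 1.79, SE 0.31, adjusted p = 0.106). Parp14, an ADP-ribosyltransferase, was at 71.8 and 65.9 TPM in HDAC KO-labelled libraries, against 5.99 and 24.0 TPM in controls (log2 fold change 2.40, SE 0.58, adjusted p = 0.136). The controls of Parp14 were farther apart than those of Bst2. Ifi27l2a was at 37.1 and 41.8 TPM in HDAC KO-labelled libraries and at 6.78 and 14.5 TPM in controls. Rtp4 was at 29.5 and 27.0 TPM in HDAC KO-labelled libraries, against 2.81 and 10.2 TPM in controls. Rsad2, encoding viperin, which makes a chain-terminating nucleotide, was at 27.5 and 22.8 TPM in HDAC KO-labelled libraries, against 5.79 and 14.5 TPM in controls. In each of these the groups were separate, as they were for Xaf1 (log2 fold change 1.72) and Ifi35 (log2 fold change 1.03). Over all genes tested, 36.7% had both HDAC KO-labelled values above both control values.

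Mx1 and Ifi44 stood at the low end. Mx1, a dynamin-like GTPase that traps viral nucleoproteins, was at 2.99 and 4.04 TPM in HDAC KO-labelled libraries and at 0.0395 and 1.14 TPM in controls, from 81 and 128 reads in HDAC KO-labelled libraries and 1 and 23 reads in controls. It was thus hardly counted in control replicate 1. Ifi44 was at 6.75 and 6.71 TPM in HDAC KO-labelled libraries and at 3.54 and 8.67 TPM in controls. Control replicate 2 was the highest library for Ifi44, so its groups overlapped. Its log2 fold change of 0.22 (SE 0.41, adjusted p = 0.825) had the opposite sign, at -0.029, after quantile normalization, and also without control replicate 1, at -0.32.

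The interferon-gamma GTPases assemble on the membranes around intracellular microbes. Gbp2 and Gbp3, which encode guanylate-binding proteins, had with Tgtp1 the largest log2 fold changes when both controls were used. Gbp2 was at 92.2 and 82.8 TPM in HDAC KO-labelled libraries, the highest level of any of the 33 genes there, against 2.79 and 19.7 TPM in controls. Its log2 fold change was 3.32 (SE 0.76, adjusted p = 0.129), and its lowest HDAC KO-labelled value was 4.20 times its highest control value. The 2 controls of Gbp2 differed from each other more than its HDAC KO-labelled libraries did. Gbp3 averaged 61.8 ± 2.57 TPM in HDAC KO-labelled libraries and 10.2 ± 11.4 TPM in controls (SD, n = 2 each), where it was at 2.11 and 18.2 TPM (log2 fold change 3.02, SE 0.82). Gbp7 was at 31.5 and 31.9 TPM in HDAC KO-labelled libraries, against 3.46 and 13.2 TPM in controls (log2 fold change 2.04, SE 0.54). All 3 lie on chromosome 3, between 142530342 and 142638008, and in all 3 the HDAC KO-labelled libraries lay much closer to each other than the controls did.

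The immunity-related GTPases made up the rest of the class. Igtp, which guards host membranes (chromosome 11, 58199556 to 58207591), was at 61.1 and 52.2 TPM in HDAC KO-labelled libraries, against 9.02 and 15.4 TPM in controls. Its log2 fold change was 2.16 (SE 0.28, adjusted p = 0.0934), the smallest p among the GTPases. Irgm1, a regulator of the same family (chromosome 11, 48861968 to 48871683), was at 20.8 and 16.2 TPM in HDAC KO-labelled libraries, against 3.45 and 5.47 TPM in controls (log2 fold change 1.85, SE 0.29, adjusted p = 0.101). Both had control values nearer to each other than the guanylate-binding proteins had. Of the effectors that coat the microbial vacuole, Tgtp1 was at 35.2 and 31.7 TPM in HDAC KO-labelled libraries, against 0.793 and 6.30 TPM in controls (log2 fold change 3.25, SE 0.65), from 807 and 851 reads in HDAC KO-labelled libraries and 17 and 108 reads in controls. Iigp1 was at 25.7 and 20.2 TPM in HDAC KO-labelled libraries, against 1.85 and 7.16 TPM in controls (log2 fold change 2.30, SE 0.52).

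Some of these values cannot be assigned to 1 locus with certainty. Of the 50-base stretches of Tgtp1, 81.2% also occur in another gene, mainly Tgtp2, which was listed at no more than 0.488 TPM in any library. The share was 57.6% for Oas1a, in Oas1g and Oas1b, 51.2% for Ifit3 and 45.0% for Ifit3b, which share with each other, and 11.8% for Igtp, in Irgm2. Gbp7, Herc6, Rtp4 and Ifi35 had shares between 10.4% and 12.7%, with overlapping predicted genes. How reads in shared or overlapping sequence were counted, and whether strand was used, is not given in the sources used here.

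**Figure D2:**
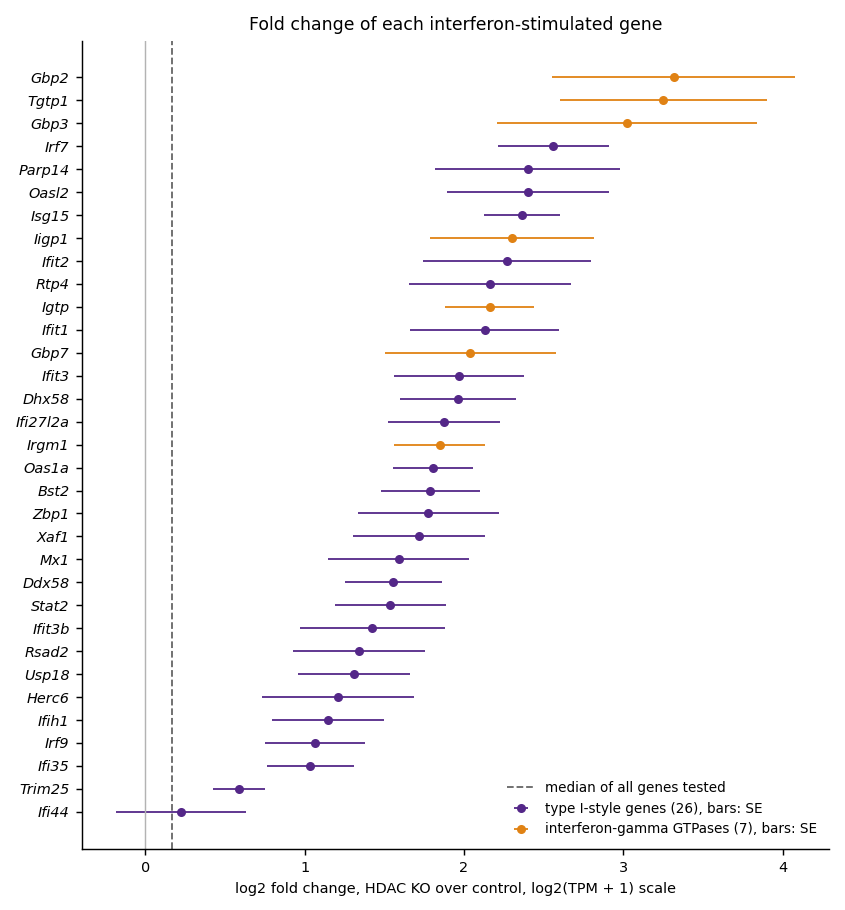
Log2 fold change of each gene, HDAC KO-labelled over control on the log2(TPM + 1) scale, with its moderated standard error (2 libraries per group). Type I-style genes are purple, GTPases orange, and the dashed line is the median of all genes tested at 0.17. Gbp2, Tgtp1 and Gbp3 stand at the top and Ifi44, which changes sign after quantile normalization, at the bottom.

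Set side by side, the type I-style genes had the smaller median difference, with ranges that overlapped those of the GTPases. The median log2 fold change was 1.75 for the 26 type I-style genes (0.22 to 2.56) and 2.30 for the 7 GTPases (1.85 to 3.32), so the type I-style median was lower by 0.56. Of the type I-style genes, 10 exceeded the lowest GTPase, Irgm1, yet the 3 largest values were GTPases, Gbp2, Tgtp1 and Gbp3. That ranking did not hold from control replicate 2 alone. There the differences were 2.24 for Tgtp1 and 2.09 for Gbp2, but 1.71 for Gbp3, below the type I-style genes Isg15 (2.14) and Irf7 (2.09). At an unadjusted p under 0.05, 25 of the 26 type I-style genes and all 7 GTPases were higher, where 13.4% of all genes tested were. By role, the medians were 1.54 for the 3 transcription factors, 1.67 for the 4 sensors, 2.05 for the 6 IFIT and OAS genes, 1.26 for the 4 genes of the ISG15 system and 1.72 for the 9 other effectors. With 2 libraries per group no test of the difference between the classes was made.

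The choice of control library moved both classes. Control replicate 2 was above control replicate 1 for all 33 genes, where 72.4% of all genes tested were, and by at least 2 times in TPM for 24 of them. On the log2(TPM + 1) scale that gap had a median of 1.02 for the type I-style genes and 1.67 for the GTPases, against 0.28 over all genes tested. Among tested cell markers its median was 1.15 for podocyte, 1.13 for glomerular endothelial, 1.20 for mesangial and 1.08 for macrophage markers, but -0.44 for proximal tubule markers. A gap of the type I-style size was thus not particular to these genes. For the 33 genes the HDAC KO-labelled libraries were closer, within 1.5 times of each other in TPM for 32 genes, all but Ifit1. Measured from control replicate 1 alone, the median difference was 2.17 for the type I-style genes and 3.06 for the GTPases, against 0.32 over all genes tested. From control replicate 2 alone it was 1.19 for the type I-style genes and 1.71 for the GTPases, against 0.04 over all genes tested. The type I-style median was thus lower than the GTPase median by 0.89 from control replicate 1 and by 0.52 from control replicate 2. In limma's moderated fit, each gene's variance is drawn toward a trend over all genes tested. The standard error of the log2 fold change is computed from that variance, and so partly from the gaps within groups. The 6 genes with the smallest gap between the controls, Trim25, Oas1a, Isg15, Irgm1, Ifi35 and Igtp, accordingly had the 6 smallest standard errors.

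**Figure D3:**
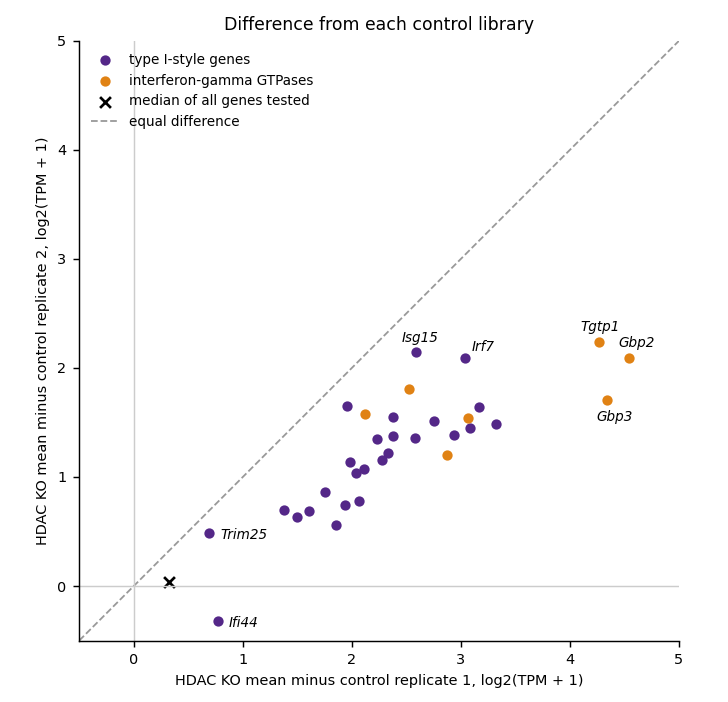
Each point is 1 of the 33 genes, with the HDAC KO-labelled mean minus control replicate 1 on the horizontal axis and minus control replicate 2 on the vertical axis, both on the log2(TPM + 1) scale. All points lie below the line of equal difference, and Ifi44 alone lies below 0 on the vertical axis. Gbp2, Gbp3 and Tgtp1 are farthest to the right.

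Upstream of these genes, the ligands were hardly represented. Of 21 interferon genes looked up, 1 was in the table. Ifnk, a type I interferon of epithelia, was at 4.86 and 1.78 TPM in HDAC KO-labelled libraries and at 2.41 and 8.36 TPM in controls, with overlapping groups (log2 fold change -0.49, adjusted p = 0.737). The other interferon genes looked up, Ifnb1 and Ifng among them, were absent from the table, so their levels could not be analysed here.

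The receptor chains were in every library. Of 13 tested genes of the receptors and their proximal signalling, 9 had an unadjusted p under 0.05 with a higher level and 0 with a lower one (13.4% and 4.46% of all genes tested), with a median log2 fold change of 0.71. Without HDAC KO-labelled replicate 1 the count was 5, where 6.40% of all genes tested were higher, and without replicate 2 it was also 5, where 5.16% were. Ifngr1, the ligand-binding chain for interferon-gamma, was at 76.8 and 74.6 TPM in HDAC KO-labelled libraries and at 26.6 and 34.6 TPM in controls (log2 fold change 1.29, adjusted p = 0.0988). Ifngr2, its signalling partner, was at 36.6 and 42.8 TPM in HDAC KO-labelled libraries and at 14.7 and 16.9 TPM in controls (log2 fold change 1.28, adjusted p = 0.0988). For both chains the controls were close and far below the HDAC KO-labelled values. Ifnar1 was at 48.5 and 47.3 TPM in HDAC KO-labelled libraries and at 30.6 and 31.8 TPM in controls (log2 fold change 0.60), and Ifnar2 averaged 21.7 ± 3.58 TPM in HDAC KO-labelled libraries and 12.1 ± 2.72 TPM in controls (SD, n = 2 each), its log2 fold change being 0.81. The type I receptor chains thus differed less than those for interferon-gamma, a difference that was not tested. Ifnlr1, of the type III interferon receptor, was at 9.85 and 7.72 TPM in HDAC KO-labelled libraries, against 3.18 and 2.37 TPM in controls, and its partner Il10rb at 19.1 and 19.5 TPM in HDAC KO-labelled libraries, against 14.7 and 16.5 TPM in controls. Socs3, an inhibitor of cytokine signalling, was at 38.2 and 38.3 TPM in HDAC KO-labelled libraries and at 1.03 and 6.79 TPM in controls (log2 fold change 3.30).

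Of 22 tested genes of nucleic acid sensing upstream of interferon, the same unadjusted threshold counted 14 as higher and 0 as lower, with a median log2 fold change of 0.94. The count was 8 without HDAC KO-labelled replicate 1 and 5 without replicate 2, where 6.40% and 5.16% of all genes tested were higher, against 13.4% with all libraries. Tmem173, which encodes STING, the adaptor for cytosolic DNA, was at 17.7 and 17.5 TPM in HDAC KO-labelled libraries and at 1.64 and 3.96 TPM in controls (log2 fold change 2.37). Lgals3bp, a secreted glycoprotein, was at 238 and 223 TPM in HDAC KO-labelled libraries, against 46.8 and 78.4 TPM in controls (log2 fold change 1.91). The list name is a convention and does not make Lgals3bp a sensor. Unc93b1, the chaperone of endosomal Toll-like receptors, was at 31.1 and 40.0 TPM in HDAC KO-labelled libraries, against 9.96 and 13.1 TPM in controls (log2 fold change 1.55). These 3 genes and Myd88, the adaptor of most Toll-like receptors (log2 fold change 1.05), were named by a rule that required separate groups. Other steps differed little from the bulk of genes. Irf3 and Tbk1, the factor and the kinase that start interferon transcription, had log2 fold changes of 0.09 each, and Mavs, the adaptor of RIG-I and MDA5, 0.30, none past the unadjusted threshold; these 3 were chosen after their values were seen.

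Genes induced by interferon but outside the 33 had the same direction in most cases. Of 34 other type I-induced genes tested, 23 were higher by the unadjusted threshold and 0 lower, with a median log2 fold change of 1.20, where 13.4% of all genes tested were higher. The count was 15 without HDAC KO-labelled replicate 1, where 6.40% of all genes tested were higher. Rnf213, a large ubiquitin ligase, was at 96.6 and 97.9 TPM in HDAC KO-labelled libraries and at 27.5 and 41.3 TPM in controls. Oasl1, an OAS-like regulator of Irf7 translation in mice, was at 14.5 and 11.0 TPM in HDAC KO-labelled libraries, against 0.573 and 2.37 TPM in controls (log2 fold change 2.56). Both were named, with Tor3a (log2 fold change 1.52) and Dtx3l (log2 fold change 1.82), by a rule that required separate groups. Samd9l, Pnpt1 and Slfn5, taken after their values were seen, had log2 fold changes of 0.08, -0.02 and -0.08.

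Of 20 other interferon-gamma-induced genes tested, 16 were higher by the unadjusted threshold and 0 lower, with a median log2 fold change of 1.89. Over all genes tested, 13.4% were higher and 4.46% lower by that threshold. The peptide transporter genes of antigen presentation were among them. Tap2 was at 43.5 and 39.1 TPM in HDAC KO-labelled libraries and at 8.38 and 13.6 TPM in controls (log2 fold change 1.85), and Tap1 at 34.0 and 33.1 TPM in HDAC KO-labelled libraries, against 3.28 and 9.63 TPM in controls (log2 fold change 2.36). Irgm2, a GTPase whose locus overlaps and shares exon sequence with that of Igtp, was at 45.7 and 35.4 TPM in HDAC KO-labelled libraries, against 6.08 and 12.9 TPM in controls (log2 fold change 2.05). Psmb10, of the immunoproteasome, had a log2 fold change of 1.63. These 4 were named by a rule that required separate groups. Cxcl10, a chemokine named after its values were seen, was at 45.0 and 42.6 TPM in HDAC KO-labelled libraries and at 0.730 and 12.5 TPM in controls (log2 fold change 3.21). It had the largest log2 fold change of the 20 tested. The 4 not past the unadjusted threshold were Gbp9 (log2 fold change 0.91), Gbp4 (0.79), Nos2 (0.61) and Cxcl9 (1.04). These were also named after their values were seen.

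**Figure D4:**
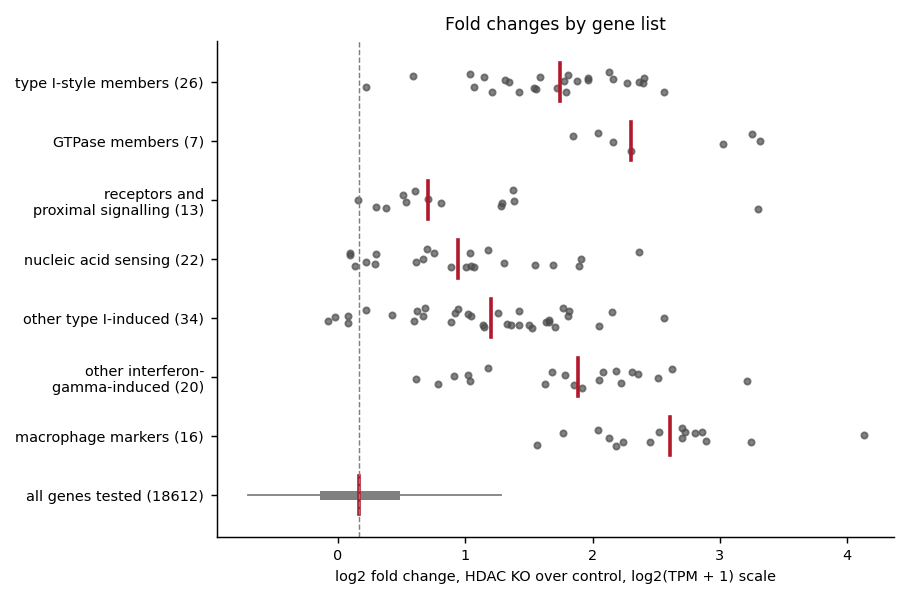
Log2 fold changes, HDAC KO-labelled over control on the log2(TPM + 1) scale, of the tested genes of each list, with the list's median as a red bar. The lowest row gives all genes tested by their median, the range from the 25th to the 75th percentile (thick) and from the 5th to the 95th (thin). The medians run from 2.61 for macrophage markers down to 0.71 for receptors and proximal signalling, with 1.75 for the type I-style genes and 2.30 for the GTPases.

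Markers of macrophages were also higher in the HDAC KO-labelled libraries. All 18 macrophage markers were above 0 in every library, and the median log2 fold change of the 16 tested was 2.61. At an unadjusted p under 0.05, 16 of the 16 were higher, where 13.4% of all genes tested were. Their summed level was 933 and 1021 TPM in HDAC KO-labelled libraries and 80.0 and 192 TPM in controls. The 33 interferon-stimulated genes summed to 1076 and 997 TPM in HDAC KO-labelled libraries and to 173 and 395 TPM in controls. The sum of the 33 genes divided by that of the macrophage markers was 1.15 and 0.976 in HDAC KO-labelled libraries and 2.16 and 2.05 in controls, so the interferon-stimulated genes differed by a smaller factor than the macrophage markers. Control replicate 2 was above control replicate 1 for both sums. Between the HDAC KO-labelled libraries the order differed, with replicate 2 higher for the macrophage sum and replicate 1 for that of the 33 genes. Of the 16 macrophage markers tested, 2 were higher in HDAC KO-labelled replicate 1 than in replicate 2. The part of macrophage RNA in the differences of the 33 genes was not tested.

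Other immune markers were at lower levels. T and NK cell markers summed to 13.4 and 23.0 TPM in HDAC KO-labelled libraries and to 2.92 and 10.9 TPM in controls; 14 of 14 were above 0 in each library except control replicate 1, where 7 were, with Cd3d, Cd3e and Cd3g among those at 0. B cell markers summed to 22.4 and 28.6 TPM in HDAC KO-labelled libraries and 3.79 and 8.15 TPM in controls, mostly Ighm, and Ms4a1 was at 0 in control replicate 1. Of 8 neutrophil markers looked up, 4 were in the table. They summed to 7.62 and 9.64 TPM in HDAC KO-labelled libraries and 0.348 and 1.35 TPM in controls, where S100a8 was at 0 in both. S100a8 and S100a9 made up most of this sum, from 10 to 31 reads each in the HDAC KO-labelled libraries. These 3 sums were higher in the HDAC KO-labelled libraries. The summed level of the 8 conventional dendritic cell markers overlapped between the groups, at 20.9 and 36.7 TPM in HDAC KO-labelled libraries and 8.54 and 25.8 TPM in controls. Of the 4 that were tested, 1, Itgax, had both HDAC KO-labelled values above both control values, where 36.7% of all genes tested had that order. Flt3, Xcr1 and Cd209a had the same order but were below the minimum mean of 1 TPM and were not tested. Itgax was at 8.52 and 14.8 TPM in HDAC KO-labelled libraries and at 0.342 and 4.59 TPM in controls, and Cd209a was at 0 in control replicate 1. Of the 5 markers of plasmacytoid dendritic cells, a major source of type I interferon, Siglech was at 3.01 and 3.57 TPM in HDAC KO-labelled libraries and at 0.265 and 1.05 TPM in controls, and Ccr9 and Pacsin1 were also higher in both HDAC KO-labelled libraries. Cox6a2 went the other way, at 2.46 and 3.16 TPM in HDAC KO-labelled libraries and 12.1 and 8.80 TPM in controls, so that the list summed to 7.46 and 9.49 TPM in HDAC KO-labelled libraries and to 13.2 and 12.3 TPM in controls. The part of these cells in the differences of the 33 genes was not tested.

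The marker sums of resident glomerular cells did not follow the pattern of the 33 genes. Endothelial markers summed to 281 and 570 TPM in HDAC KO-labelled libraries and to 339 and 790 TPM in controls, and 0 of 10 passed the unadjusted threshold. Mesangial markers summed to 185 and 238 TPM in HDAC KO-labelled libraries and to 137 and 210 TPM in controls. Ren1 was the largest part, at 89.3 and 88.2 TPM in HDAC KO-labelled libraries and 63.5 and 55.0 TPM in controls. It was the 1 of the 8 mesangial markers past the unadjusted threshold, with a higher level, where 13.4% of all genes tested were higher. The sums of both lists, like that of the macrophage markers, had replicate 2 above replicate 1 within each group. For the interferon-stimulated genes that order held in the controls for all 33, whereas HDAC KO-labelled replicate 1 was the higher of its pair for 24 of them.

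**Figure D5:**
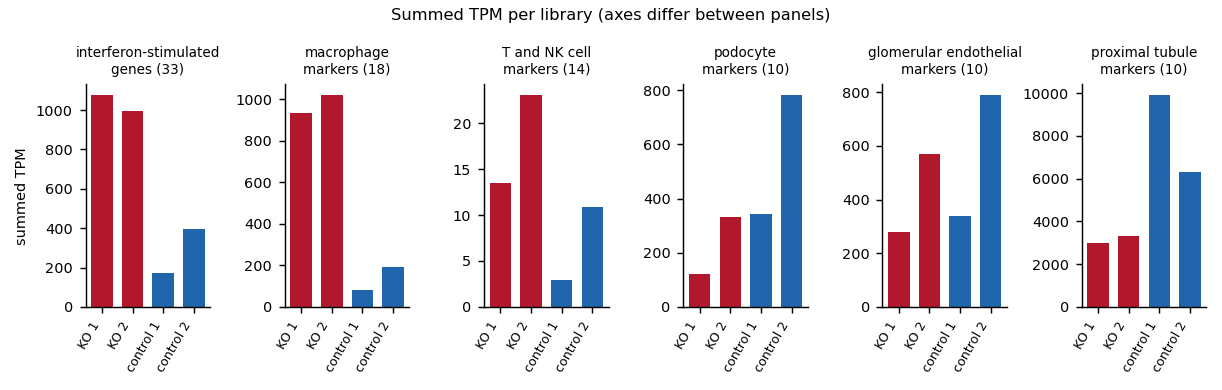
Summed TPM of the 33 interferon-stimulated genes and of marker lists in each library, with HDAC KO-labelled libraries in red and controls in blue; axes start at 0 and differ between panels. The interferon-stimulated genes reach 1076 and 997 TPM in HDAC KO-labelled libraries and 173 and 395 TPM in controls, and the macrophage markers have the same order of groups.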

How the data were processed

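The deposited table, made by the authors, gives TPM for 22809 genes in 4 columns, each matched to its sample by name. Per the submitters' processing notes the tools were fastp (0.20), STAR (2.7.9), featureCounts (2.0.0) and DESeq2 (1.30.1), in no stated role or order, and the build GRCm38.p6. The annotation is not given in the sources used here, nor are the strand setting and the filter on genes. TPM multiplied by exon-union lengths of GENCODE M21 gave whole reads for 22382 genes (98.1%) within a relative tolerance of 1e-06; Isg15 was not among them. Symbols came from that annotation.

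Genes with a mean of 1 TPM or more, 18612 in all and with them all 33 described, were fitted on log2(TPM + 1) with limma 3.58.1 (lmFit, then eBayes using a trend) in R 4.3.3, without covariates. P values were adjusted over these genes by the Benjamini-Hochberg method, with a threshold of 0.05. The scale understates the fold change of low genes. Replicates are pools of mice, so p values rest on the spread between pools and not between single mice. The fit leaves 2 residual degrees of freedom per gene, and eBayes moderates each variance with those of all genes tested. The alternatives changed the pseudocount (0.1 or 5), the minimum mean (none, or 5 TPM), the scaling (median ratio or quantiles), the trend, the replicate number as a block, and the libraries (each left out), or used voom on the whole reads.

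The 33 genes and all lists were chosen with earlier results of these data known. The genes named were all 33, the ligands and receptors in the table, and in each other list up to 4 with the smallest p and no overlap between groups; others are said to be named after their values were seen. Promoter windows are from RefSeq, with none matched for Dhx58, Ifi27l2a, Iigp1, Mx1, Parp14, Rtp4, Usp18 and Zbp1. Shared sequence was counted over stretches of 50 exon bases. Python 3.11.15, numpy 2.4.6, pandas 2.3.3 and matplotlib 3.10.9 were used.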

Additional observations from a re-analysis of the deposited data

How the results depend on the processing

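Across 13 alternatives, the 33 genes (30 of them tested with a minimum mean of 5 TPM and 32 with voom) kept a positive log2 fold change apart from Ifi44, which was at -0.029 after quantile normalization and ran from -0.32 (without control replicate 1) to 0.77 (without control replicate 2) with 1 library left out. The count of the 33 called at an adjusted p under 0.05 ranged from 0 to 31 with 1 library left out, the 31 being without control replicate 2, and was 0 under every other alternative. Over all genes, 0 to 1558 were called higher and 0 to 522 lower with 1 library left out, against 0 and 1; the 1 lower call was lost with quantile normalization, eBayes without trend and voom (0 each). The cause was not tested. At an unadjusted p under 0.05, between 25 and 33 of the 33 were higher, lowest without HDAC KO-labelled replicate 1, where 6.40% of all genes tested were, and highest without control replicate 2, where 26.6% were; the lowest share of all genes was 5.16%, without HDAC KO-labelled replicate 2, where 26 of the 33 were higher. The median log2 fold change of the type I-style genes was 1.14 with a pseudocount of 5, against 1.75, since a larger pseudocount compresses low values; that of the GTPases ran from 1.71 without control replicate 1 to 3.06 without control replicate 2. With median-ratio scaling or quantile normalization the median of all genes was -0.03 in place of 0.17, and the median of the 33 genes stood 1.68 above it in each case. With 1 library left out, genes higher at an unadjusted p under 0.05 numbered 5 to 11 among receptors and proximal signalling (9 with all libraries), 5 to 17 in nucleic acid sensing (14) and 15 to 29 among other type I-induced genes (23).

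The replicate numbers are shared between the groups, but nothing in the labels pairs the libraries, and the differences between replicates correlated at r = 0.14 across 18612 genes, which are not independent. With the replicate number as a block, 32 of the 33 genes were higher at an unadjusted p under 0.05, 0 passed adjustment, and the lowest adjusted p among them was 0.0618. Low counts limit Mx1, with 1 read in control replicate 1.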
